A study of Mus musculus with 2 samples.

Results

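The genes described here are 10 core genes of the NF-kB pathway in the mouse: the 5 genes for the DNA-binding subunits (Nfkb1, Nfkb2, Rela, Relb and Rel) and 5 for inhibitors and feedback regulators of the same factor (Nfkbia, Nfkbie, Nfkbiz, Tnfaip3 and Bcl3). They were chosen by name from 21938 protein-coding genes, and the locus of each was its gene body with 20 kb on either side on the build mm10. DNase-seq marks open chromatin through the cuts that the nuclease DNase I makes where DNA is not covered by nucleosomes. The data come from whole urinary bladder of male B6CASTF1/J mice aged 14 days, which are first-generation hybrids of C57BL/6J and CAST/EiJ. There is 1 group with 2 replicates and no treatment, so no conditions could be compared, and every value is a description. Per the labels, replicate 1 came from a male and replicate 2 from 3 pooled males, and both carry the same donor identifier. Separate animals are therefore not certain, and the SD of the replicates (n = 2) may be partly technical.

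NF-kB is a family of dimers built from REL-domain proteins. In resting cells IkB proteins hold the dimers in the cytoplasm, and signals from cytokine or pattern receptors lead the IKK kinases to mark IkB for destruction, which frees the dimers to enter the nucleus. The dimers then switch on inflammatory and survival genes, and also the genes of their own inhibitors, a feedback loop in which NF-kB sites in those genes' promoters are long known. In the bladder the pathway is best known from the urothelial response to bacterial infection.

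The replicates had 139821 and 82225 peaks and 331596 and 200630 footprints, and peaks of both joined into 73164 shared regions. The signal given with each peak is the authors' density, and it came in whole steps of 0.00521 in replicate 1 and 0.00799 in replicate 2. The absolute depth is unknown. Across the marker lists for cell types of the bladder wall, shared peaks lay at the promoters of 7 of 7 urothelial genes, 6 of 6 smooth muscle genes and 5 of 5 fibroblast genes, beside 66.1% of all protein-coding genes. Endothelial genes had 3 of 5, immune genes 1 of 8, brain genes 3 of 4 and liver genes 0 of 4. Among the immune genes only Lyz2 was open, at a signal of 0.53, while Cd79a, Itgam, Adgre1 and Csf1r had no promoter peak in either replicate and Ptprc, Cd3e and Cd74 had one in replicate 1 alone. In whole tissue, fewer cells of a type and less accessibility per cell cannot be told apart.

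The sequences that carry the account are the promoters with an NF-kB site. NF-kB dimers bind a site of 10 bases that opens with GGG, has a purine at the fourth position and pyrimidines at the seventh and eighth, and closes with CC. Matches to this NF-kB consensus were searched on both strands, and many sites match on both since the form is nearly a palindrome. RefSeq promoter sequences (GRCm38.p6, the build mm10, from 250 bases before the start to 50 after it) were found for 7 of the 10 genes. Nfkb1, Relb and Nfkbiz were not among them. The genome sequence is that of C57BL/6J, so alleles from CAST/EiJ are not shown. The 5 promoters printed here, each read 5′ to 3′ on the strand of its gene, were chosen because a match lies close to the start, and capitals mark every base in a match. In the Nfkb2 and Rel promoters the longest run of capitals holds 2 matches that overlap by all but 1 base.
Nfkb2 promoter, chr19:46304487-46304786, plus strand: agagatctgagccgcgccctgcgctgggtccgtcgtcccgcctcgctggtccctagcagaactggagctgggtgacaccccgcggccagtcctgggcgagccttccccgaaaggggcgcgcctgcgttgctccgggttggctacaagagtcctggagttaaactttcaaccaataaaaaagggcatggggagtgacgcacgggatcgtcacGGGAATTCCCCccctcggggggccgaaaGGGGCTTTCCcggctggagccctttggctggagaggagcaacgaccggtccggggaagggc
Rel promoter, chr11:23770920-23771219, minus strand: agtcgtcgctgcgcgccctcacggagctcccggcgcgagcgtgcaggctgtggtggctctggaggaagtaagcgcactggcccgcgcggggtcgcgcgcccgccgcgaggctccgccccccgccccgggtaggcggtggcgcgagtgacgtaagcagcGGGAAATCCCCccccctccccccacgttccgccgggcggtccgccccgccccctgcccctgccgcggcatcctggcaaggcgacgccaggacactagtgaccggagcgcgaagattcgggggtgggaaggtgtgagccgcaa
Nfkbia promoter, chr12:55492598-55492897, minus strand: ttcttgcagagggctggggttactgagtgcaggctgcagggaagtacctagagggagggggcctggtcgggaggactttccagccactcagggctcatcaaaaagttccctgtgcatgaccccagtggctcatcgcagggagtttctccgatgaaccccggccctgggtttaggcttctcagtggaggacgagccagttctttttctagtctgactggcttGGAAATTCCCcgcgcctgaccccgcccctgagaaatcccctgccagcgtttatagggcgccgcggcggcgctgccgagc
Nfkbie promoter, chr17:45555450-45555749, plus strand: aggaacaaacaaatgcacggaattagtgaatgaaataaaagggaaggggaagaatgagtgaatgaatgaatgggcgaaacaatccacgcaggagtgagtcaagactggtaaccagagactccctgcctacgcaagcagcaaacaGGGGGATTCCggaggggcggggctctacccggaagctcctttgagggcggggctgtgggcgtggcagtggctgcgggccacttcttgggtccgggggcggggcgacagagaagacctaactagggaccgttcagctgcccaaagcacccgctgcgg
Tnfaip3 promoter, chr10:19015361-19015660, minus strand: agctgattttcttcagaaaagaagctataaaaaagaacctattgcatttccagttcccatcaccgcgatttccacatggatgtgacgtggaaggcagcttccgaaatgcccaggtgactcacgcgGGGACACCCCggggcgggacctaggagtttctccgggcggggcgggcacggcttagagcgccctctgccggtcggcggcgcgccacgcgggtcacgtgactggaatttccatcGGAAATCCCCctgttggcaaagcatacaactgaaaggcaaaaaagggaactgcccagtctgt

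Single sites outside those windows, or of special place in them, are given with 10 bases on either side and the site in capitals. They are the site just downstream of the Bcl3 start, the site under the strongest Nfkbia peak, and the other matches that had at least 5 bases under footprints of each replicate.
Bcl3 start, capitals at chr7:19822744-19822753, minus strand: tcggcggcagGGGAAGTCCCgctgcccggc
Nfkbia downstream peak, capitals at chr12:55491957-55491966, plus strand: cagccgcccaGGGACTTTCCgtgccccacc
Nfkbiz upstream region, capitals at chr16:55853128-55853137, minus strand: cgtagtacatGGGAAACCCCaaaatacact
Sipa1 promoter in the Rela locus, capitals at chr19:5663773-5663782, plus strand: cacagtgggtGGGGACCTCCgacaggaacc

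All 10 genes had an open promoter, defined as a shared region within 1 kb of any annotated transcription start site (TSS). Over all protein-coding genes the share was 66.1% (14500 of 21938). With the authors' stricter peak list the count was again 10 of 10, beside 61.8% of all genes (13555). Since most genes share the property, the level says more than the count. The median promoter signal, the signal of the strongest shared peak at the promoter, was 7.39 over the 10 genes and 4.62 over all open promoters, whose quartiles were 2.15 and 7.80. Of the 10 genes, 9 were at or above that median, a level that 50% of open promoters reach by definition, and Nfkb1 was below it.

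Among the subunits, Nfkb1 stood lowest. Nfkb1 encodes the precursor of p50, a subunit that lacks a transactivation domain, and lies at chr3:135584655-135691547 on the minus strand. Its promoter signal was 1.71 in replicate 1 and 1.65 in replicate 2 (1.68 ± 0.041, SD, n = 2), at the percentile 19.7 of open promoters. The deposited values of the replicates were nearly equal. The signal was spread over 3 shared regions around the start, with means of 0.86, 1.68 and 1.29 from upstream to downstream.

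Nfkb2 encodes the precursor of p52, the subunit of the non-canonical branch, at chr19:46304320-46312385 on the plus strand. Its promoter signal was 7.91 and 7.30 in replicates 1 and 2 (7.61 ± 0.43), at the percentile 73.7. A second shared region at its promoters, centred 0.851 kb downstream of the main start, had 4.77 and 4.87. Both replicates thus placed the stronger peak at the upstream region, where 3 of the NF-kB matches printed above lie.

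Rela encodes p65, the main transactivating subunit of the canonical branch, at chr19:5637483-5648130 on the plus strand. Its signal was 5.71 and 5.28 (5.50 ± 0.30), at the percentile 57.5. Its RefSeq promoter window, with a GC content of 71.3%, held no match to the NF-kB consensus, which says only that these letters are not in that window.

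Relb encodes the partner of p52 in the non-canonical branch, at chr7:19606217-19629438 on the minus strand. Its signal was 9.67 in replicate 1 and 6.95 in replicate 2 (8.31 ± 1.92), at the percentile 78.2 and the highest mean of the subunits. That peak was centred 0.707 kb into the gene, and the region over the start itself was lower, at 7.02 and 5.48. The ranges of Relb and Nfkb2 overlapped, so their order is not settled by 2 replicates.

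Rel encodes c-Rel, the subunit best known from lymphocytes, at chr11:23736847-23770970 on the minus strand. Its signal was 7.36 and 6.13 (6.75 ± 0.87), at the percentile 67.5. The promoter was open, as in 66.1% of all protein-coding genes. Of the immune markers listed above only Lyz2 was open. Upstream of the start a second peak was called in replicate 1 alone, at a signal of 4.01, and all 260 of its bases lay in stretches that replicate 2 also had at an FDR of 0.05 or lower. That peak is thus a difference in what was called as a peak, not in whether the stretch passed that threshold.

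By the mean of the replicates, the inhibitors Nfkbia and Tnfaip3 had the highest promoter signals. In replicate 1 the subunit Relb, at 9.67, was above Tnfaip3, at 9.03. Nfkbia, at chr12:55489410-55492647 on the minus strand, encodes IkB-alpha, the inhibitor that NF-kB induces most directly and that ends the response. Its signal was 11.5 in replicate 1 and 10.95 in replicate 2 (11.2 ± 0.35), at the percentile 91.6. This strongest peak was centred 0.676 kb downstream of the start, and the region over the start had 7.54 and 9.01. Nfkbia was above each of the other 9 genes in both replicates.

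Tnfaip3, at chr10:19000910-19015657 on the minus strand, encodes A20, a ubiquitin-editing enzyme that shuts off signalling upstream of IKK. Its signal was 9.03 in replicate 1 and 10.6 in replicate 2 (9.83 ± 1.13), at the percentile 86.3. It was the only one of the 10 genes with the higher deposited value in replicate 2, whereas 82.2% of all open promoters were higher in replicate 1. Those counts depend on the scale: after each replicate was divided by its median over shared regions, 3 of the 10 genes and 30.3% of all open promoters were higher in replicate 1.

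Nfkbie, at chr17:45555703-45563169 on the plus strand, encodes IkB-epsilon, a slower feedback inhibitor. Its signal was 8.35 and 5.99 (7.17 ± 1.67), at the percentile 70.7. Nfkbiz, at chr16:55811375-55838899 on the minus strand, encodes IkB-zeta, a nuclear IkB protein that acts on secondary response genes. Its strongest promoter peak had 8.49 and 6.72 (7.60 ± 1.25), at the percentile 73.7. For Nfkbiz that peak was not at the main start but at an internal start, centred 16.7 kb downstream, and the region over the main start had 3.59 and 2.89. The region at the internal start thus had a higher signal than that at the main one in both replicates.

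Bcl3, at chr7:19808462-19822770 on the minus strand, encodes a nuclear IkB protein that joins p50 or p52 homodimers on DNA. Its signal was 6.47 in replicate 1 and 3.38 in replicate 2 (4.92 ± 2.18), at the percentile 52.7. This peak lay at an internal start, centred 6.30 kb into the gene, and the region over the main start had 2.00 and 2.25. Its deposited values lay further apart, as a ratio, than those of any other of the 10 genes. On the scale of the replicate medians used for Tnfaip3, the log2 ratio of replicate 1 to replicate 2 at Bcl3 was 0.54, at the percentile 98.4 of open promoters. At the other end was Tnfaip3, at −0.63 and the percentile 5.02, followed by Nfkb1, at −0.34 and the percentile 22.7. Over all open promoters this ratio had a median of −0.14 and an SD of 0.30, and the median of the 10 genes was −0.20. When only the peak nearest to the main start was read for each gene, 7 of the 10 genes rather than 9 reached the median of open promoters.

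**Figure D1:**
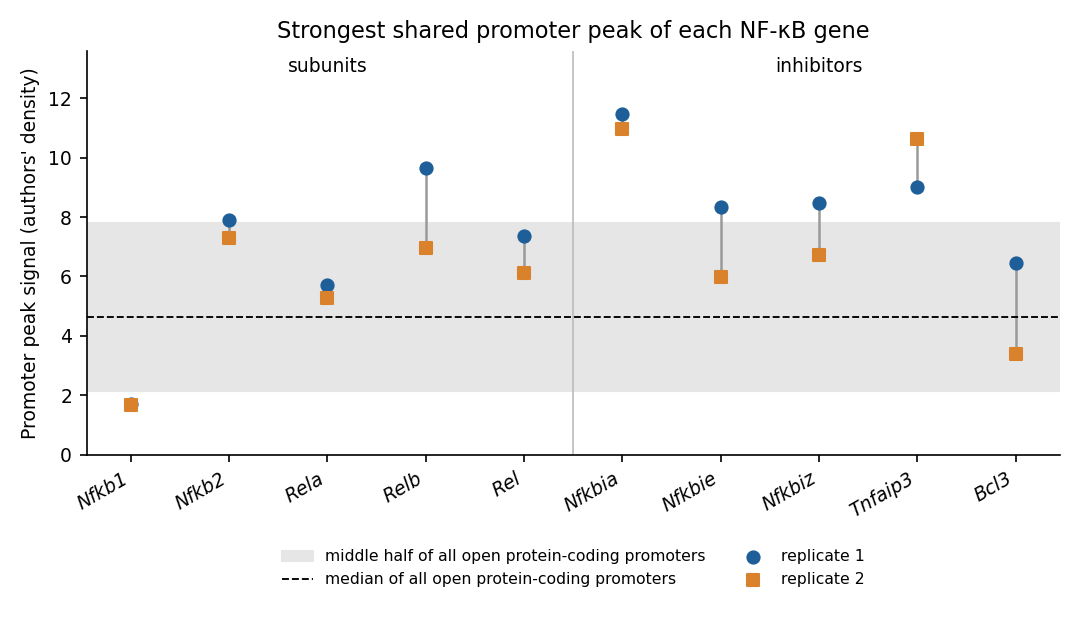
Signal of the strongest shared peak within 1 kb of a TSS (vertical axis, the authors' density) for the 10 genes, with circles for replicate 1 and squares for replicate 2. The band spans the quartiles 2.15 to 7.80 of all 14500 open promoters and the dashed line is their median of 4.62. Nfkb1 lies below the band, Nfkbia and Tnfaip3 above it in both replicates, and the replicates of Bcl3 fall on either side of the line.

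The 10 loci cover 650.24 kb and held 68 shared regions, with 28 further regions of replicate 1 alone and 15 of replicate 2 alone. Across the genome there were 73164 shared regions, 63999 of replicate 1 alone and 7321 of replicate 2 alone. Of the 68, 22 (32.4%) were centred at a promoter of the gene itself, 14 (20.6%) at a promoter of another gene, 4 in exons, 12 in introns and 16 outside genes. Over all shared regions 37.0% were centred at a promoter of any gene. That set also covers places far from genes, whereas the loci were drawn around genes with an open promoter, so the sets are unlike. The median over the 10 loci was 10.5 shared regions per 100 kb, beside 4.96 over all protein-coding genes. Only 66.1% of the latter had an open promoter, against all 10 here, and the density over open genes alone was not counted. Among protein-coding genes of the same length decile, the percentile of density ran from 38.7 at Nfkb1 and 44.6 at Rel to 97.3 at Bcl3. Nfkbie had the densest locus, at 23.2 per 100 kb and the percentile 98.2 of protein-coding genes, followed by Bcl3 at 22.1. Nfkb1, the longest of the 10 genes at 107 kb, had the lowest density, at 3.40.

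Part of the density lay at neighbouring genes. In the Nfkbie locus 5 of 11 shared regions lay at promoters of other genes, and the strongest of them, at the promoter of the chaperone gene Hsp90ab1, had 14.5 and 10.8. That is above the Nfkbie promoter itself. In the Relb locus the strongest region was at the promoter of Clasrp, at 10.99 and 7.94, and in the Rela locus at that of Sipa1, at 6.96 and 6.36. Nfkb1, Nfkbia, Nfkbiz and Tnfaip3 had no TSS of another protein-coding gene in their loci, and Tnfaip3 with 4 shared regions and Nfkbiz with 6 had most of them at their own starts.

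**Figure D2:**
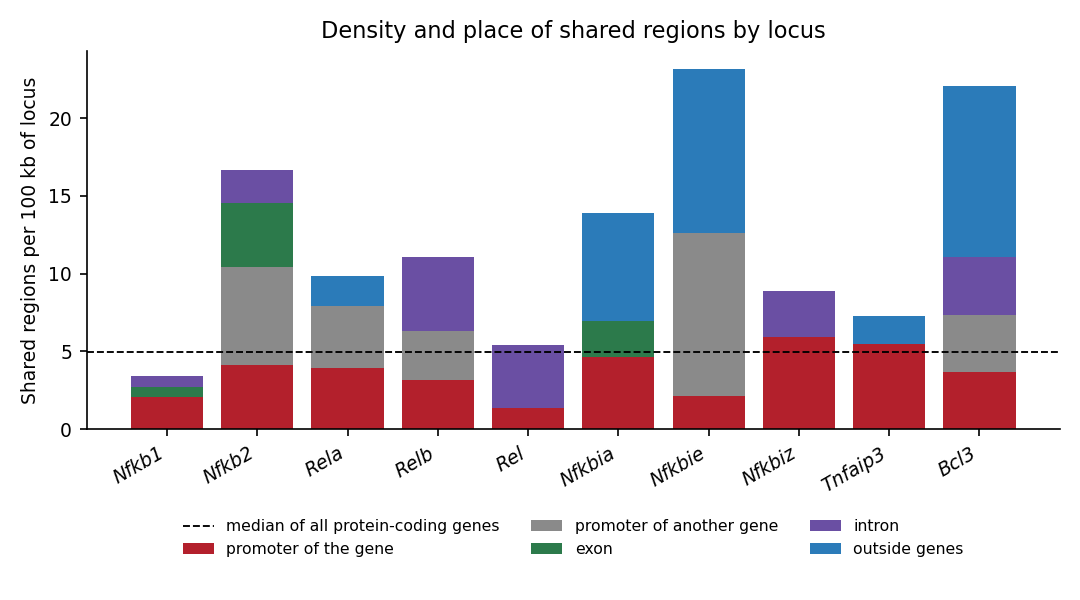
Shared regions per 100 kb of locus (vertical axis) for the 10 genes, stacked by where the centre of each region lies. The dashed line is the median of 4.96 over all protein-coding genes. Nfkbie at 23.2 and Bcl3 at 22.1 stand highest, with large parts outside genes, and Nfkb1 at 3.40 is the locus below the line.

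Away from promoters, Bcl3 had the strongest regions of the 10 loci. The strongest lay 1.57 kb upstream of its main start, outside genes, at chr7:19824181-19824500, with 8.48 in replicate 1 and 6.45 in replicate 2 (7.46 ± 1.43). Another, 8.15 kb upstream, had 7.36 and 6.14. Both were above the signal of any Bcl3 promoter region in the same replicate. In the Nfkb2 locus the strongest non-promoter region lay in an exon 25.4 kb downstream of its start and so beyond the gene, with a mean of 4.06 ± 0.61, and a region in an exon within the gene, 4.44 kb downstream, reached 3.91 ± 1.26.

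The strongest non-promoter regions of the other loci were weaker. In the Rela locus a region 11.4 kb downstream of the start, past the end of the gene, had 2.54 and 3.15. In the Nfkbiz locus the strongest, 14.2 kb upstream in an intron, had 3.76 and 1.66. In the Nfkbia locus it lay 6.60 kb upstream and had 3.51 and 1.85. The replicates of these last regions lay further apart than those of Rela. For Relb the value was 2.36 ± 0.75 in an intron 10.2 kb downstream, and for Nfkbie 2.17 ± 0.46 at 3.42 kb upstream. Nfkb1 (0.80 ± 0.15), Rel (0.63 ± 0.070) and Tnfaip3 (0.50 ± 0.092) had no shared non-promoter region above a mean of 1. An intron region of Nfkb1 that was called in replicate 1 alone had 1.03 there.

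**Figure D3:**
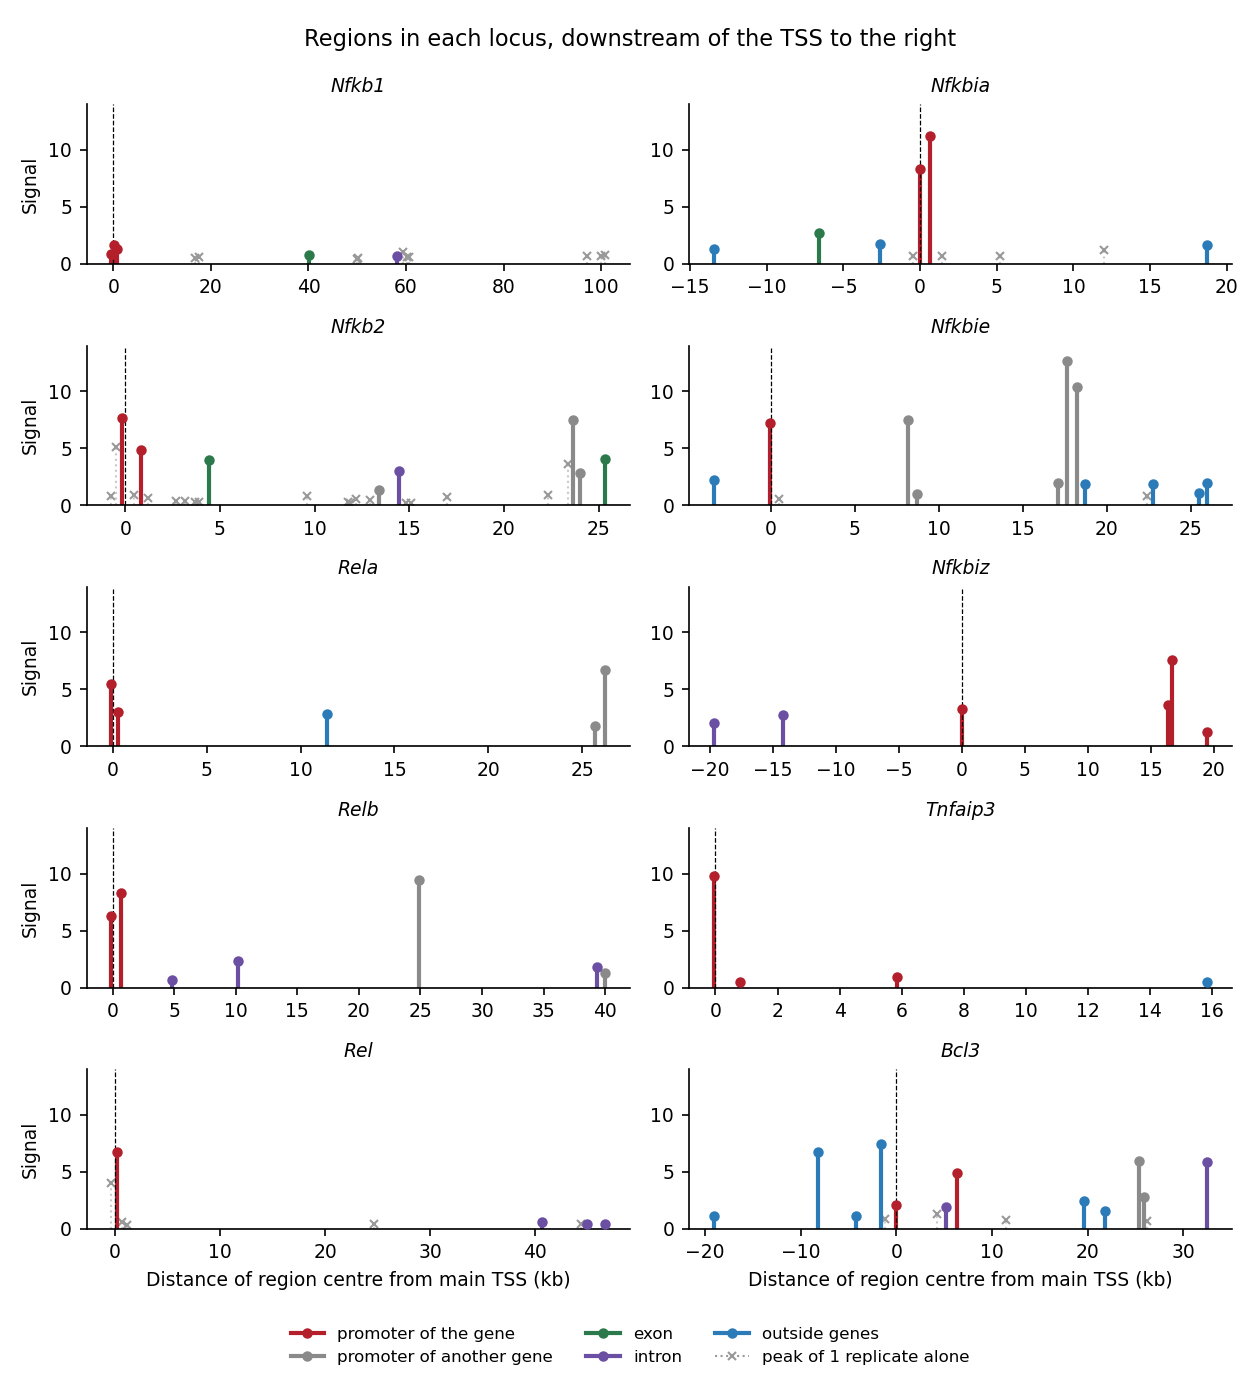
Regions in each of the 10 loci by distance of their centre from the main TSS (horizontal axis, kb, downstream to the right, scaled per gene) and signal (vertical axis, mean of the replicates, 0 to 14 in every panel). Coloured sticks are shared regions by place, and crosses are peaks of 1 replicate. Nfkbia and Tnfaip3 peak at or near the start, Nfkbiz 16.7 kb downstream of it, and the Bcl3 panel shows the regions at 1.57 and 8.15 kb upstream.

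In 9 of the 10 loci most of the bases that passed in replicate 2 also passed in replicate 1, and the Nfkb2 locus stood apart. Bases at an FDR of 0.05 or lower, which marks stretches with more cuts than the authors' background, came to 35.6 kb in replicate 1 and 31.6 kb in replicate 2 over the 10 loci. Both had 27.2 kb in common, which is 4.18% of the loci. In the Nfkb2 locus replicate 2 had 7.27 kb and replicate 1 only 4.79 kb, and 3.68 kb were in replicate 2 alone. The share of replicate 2's bases that replicate 1 also had was 49.4% there and 97.0% over the other 9 loci.

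The Nfkb2 locus also held 10 of the 15 regions of replicate 2 alone. They lay from 2.66 to 15.1 kb downstream of the start, in the Nfkb2 gene body and at the neighbouring Psd, and had signals of 0.19 to 0.49, in the lowest 19.1% of replicate 2's peaks. None of their bases reached an FDR of 0.05 in replicate 1. Only 64 protein-coding loci (0.292%) held as many regions of replicate 2 alone, and the median locus held 0. The Nfkb2 promoter values above do not rest on these weak regions.

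Of the 28 regions of replicate 1 alone, 8 touched a stretch at an FDR of 0.05 in replicate 2 and 4 were covered by such stretches for 50% or more of their length. Those 4 included the strongest of them, a peak 0.479 kb upstream of the Nfkb2 start at 5.13, the peak at 4.01 upstream of Rel and a peak at 3.58 at the Fbxl15 promoter. Each of these was covered in full. The other replicate 1 regions had signals of at most 1.31.

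**Figure D4:**
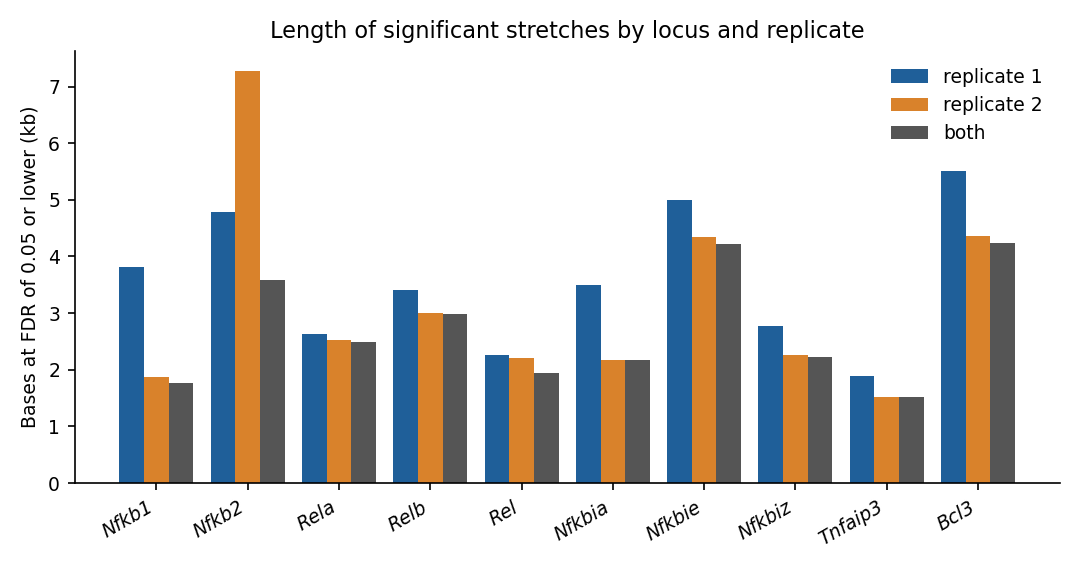
Kilobases at an FDR of 0.05 or lower (vertical axis) in replicate 1, in replicate 2 and in both, for each of the 10 loci. In the Nfkb2 locus replicate 2 reaches 7.27 kb and the part in common 3.59 kb, and in the other 9 loci the bar for both is close to that of replicate 2.

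Footprints, short protected stretches inside open chromatin that may mark a bound protein, numbered 320 in replicate 1 and 262 in replicate 2 over the 10 loci, and 169 overlapped between the replicates by at least 1 bp. A shared footprint lay in 82.4% of the 68 shared regions and in 71.0% of all shared regions. By gene, shared footprints in the locus ran from 6 at Nfkb1, which had the weakest promoter, to 31 at Bcl3, which had the largest number of shared regions.

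Matches to the NF-kB consensus were frequent in these regions. Of the 68 shared regions, 21 (30.9%) held at least 1 match, beside 7.79% of all shared regions (5703 of 73164). There were 25 matches, of which 24 had the stricter form with A or T at the sixth position, and the rate was 14.9 per 10 kb beside 3.81 over all. The regions of the 10 loci were richer in GC than all shared regions, with medians of 62.0% and 55%, and more often at promoters, so the same share was taken within like regions. At promoters it was 15 of 36 (41.7%) beside 11.7% of all promoter regions. At promoters with a GC content of 60% or more, a limit chosen after seeing the data, it was 14 of 31 (45.2%) beside 14.5%. Outside promoters it was 6 of 32 (18.8%) beside 5.49%. The share was higher in the NF-kB loci in each of these classes, and no test was made, since the genes were chosen as a pathway known for such sites.

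**Figure D5:**
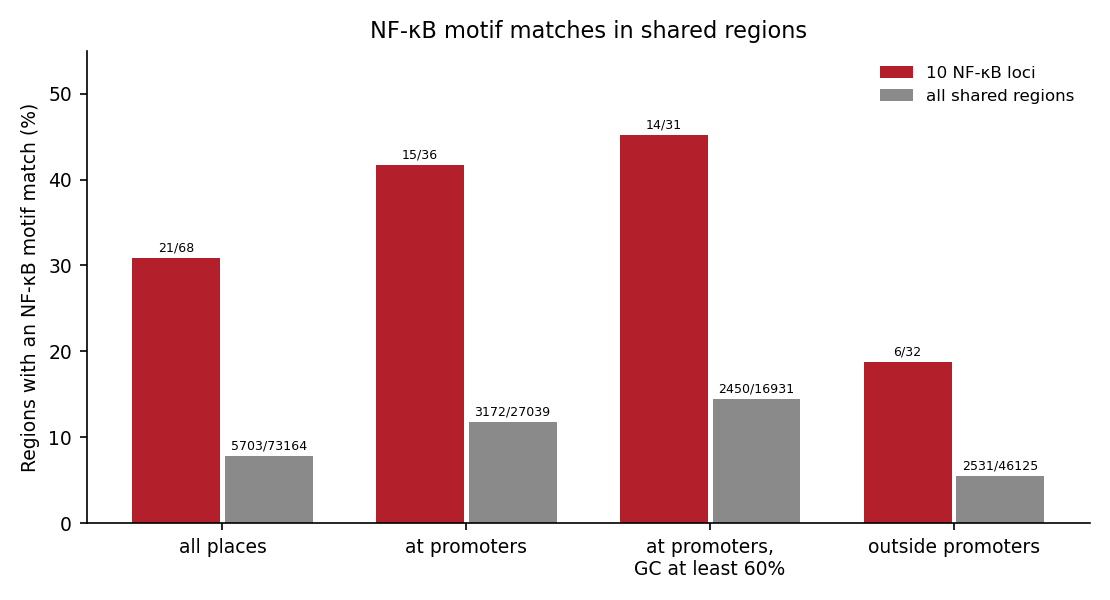
Percent of shared regions with a match to the NF-kB consensus (vertical axis) in the 10 NF-kB loci and over all shared regions, for all places, promoters, promoters with a GC content of 60% or more and places outside promoters. The counts above the bars are regions with a match and regions in all. The bars of the 10 loci run from 18.8% to 45.2% and those of all regions from 5.49% to 14.5%.

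The matches lay at the genes' own starts above all. Promoter regions of the 10 genes held a match in 11 of 22 cases, and promoter regions of their neighbours in 4 of 14, beside 11.7% of all promoter regions. Within 150 bp of the main start, 12 matches lay in shared regions of 8 of the 10 genes. The same window was not counted over all genes, and the Nfkb2 matches at −97 and −96 overlap. Measured from the main GENCODE start, Nfkb2 had matches at −97, −96 and −69, Nfkbie at −104, Tnfaip3 at −121 and −8, and Nfkbia at −25. Downstream of the start lay those of Nfkb1 and Nfkbiz, each at 34, and of Bcl3 at 21, while Relb had them at −93 and −20. Each distance is that of the centre of the site in bases along the gene's own direction. The 2 genes without one in a shared region there were Rela and Rel.

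Rel does carry matches, at −92 and −91 from its RefSeq start, here counted to the first base of the site, which overlap and appear as 1 run in the sequence above. They lie in the gap between the shared peak just downstream of the start and the replicate 1 peak upstream. All their bases were at an FDR of 0.001 or lower in both replicates, and both replicates had a footprint that overlapped each match by at least 1 base. How many of their bases the footprints covered was not counted. Counting them, 6 of the 7 genes with a RefSeq promoter sequence had a match in it: Nfkb2, Rel, Nfkbia, Nfkbie, Tnfaip3 and Bcl3, with Rela the exception. Over all genes with such a sequence the share was 9.55% (2581 of 27025), and over all 32851 promoter windows 8.46%. These sequences were not matched for base composition, and a gene such as Nfkb2 had several windows in which a match could lie.

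Of the 25 matches in shared regions, 8 (32%) overlapped a footprint of both replicates, beside 14.1% of 6880 matches over all shared regions. The shared regions of the 10 loci also held more shared footprints in general, with a median of 2 beside 1 over all. These shares were not compared within like regions, and the 8 include the overlapping Nfkb2 sites at −97 and −96. In several cases the overlap with a footprint was slight. At the printed Nfkbie site the footprints of both replicates covered 1 of the 10 bases, and at the Tnfaip3 site at −121 that of replicate 2 covered 2. At Nfkb1 they covered 6 bases in replicate 1 and 3 in replicate 2. At the overlapping Nfkb2 sites at −97 and −96 replicate 1 had a footprint over 1 and 2 bases, while 2 footprints of replicate 2 lay on them. When at least 5 bases had to be covered in each replicate, a limit set after seeing the data, 3 matches remained, beside 7.92% of all matches (545 of 6880). A count of 3 is too small to place apart from that share.

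Those 3 sites are printed above. The Nfkbia site, 685 bp into the gene and under its strongest peak, was covered over 9 of 10 bases in both replicates, by footprints of 28 and 26 bp. The Nfkbiz upstream site, at 14.2 kb, was covered over 10 bases in replicate 1 and 7 in replicate 2. The site at the Sipa1 promoter in the Rela locus was covered over 10 and 6 bases, and it is the 1 match outside the stricter form. The Nfkbia and Tnfaip3 sites nearest to the starts, at −25 and −8, had no footprint in either replicate. The regions that hold them had signals of 7.54 and 9.01 at Nfkbia and of 9.03 and 10.6 at Tnfaip3.

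The rest of the pathway was open as well. Of 38 other pathway genes, all 38 had an open promoter, beside the 66.1% of all genes. The receptors (8 genes) had the lowest median signal, 2.72, and were led by Ltbr, the lymphotoxin receptor, at 5.38 ± 0.88 and Il1r1, the receptor of the cytokine that Il1b encodes, at 5.16 ± 1.74. The adaptors and ubiquitin ligases (11 genes) had a median of 4.88 and were led by Traf2 at 12.3 ± 2.67 and Traf5 at 11.6 ± 4.003. The kinases (10 genes) had a median of 6.08, led by Map3k14, the NIK kinase of the non-canonical branch, at 13.2 ± 0.47 and Chuk, the IKK-alpha subunit, at 9.76 ± 2.49. Other inhibitors (9 genes) had the highest median, 8.69, led by Otulin, a deubiquitinase for linear chains, at 12.6 ± 1.83 and Tnip1, a partner of A20, at 10.8 ± 2.27. By median signal the inhibitors thus stood highest of the 4 groups and the receptors lowest.

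Target genes were mixed. Of 20 textbook target genes, 15 had an open promoter, beside 66.1% of all genes, with a median signal of 1.95 over those 15. Gadd45b, a stress-response gene, was highest at 13.3 ± 2.29, and Sod2, the mitochondrial superoxide dismutase, followed at 13.0 ± 2.15. Il1b, Ccl5 and Ccl20, a cytokine and chemokines, had no promoter peak in either replicate, nor had Csf2 and Sele, which are named here after their values were seen. A match to the NF-kB consensus lay in the RefSeq promoter of 8 of 17 target genes with a sequence and of 9 of 33 other pathway genes, 4 of them among the 9 other inhibitors, beside 9.55% of all genes with a sequence. These shares were not matched for base composition either.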

How the data were processed

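DNase-seq libraries of 2 bladder replicates were analysed as 1 group. Each has 2 peak lists, a footprint list and an FDR track, made from 1 library without pooling on the build mm10, per the notes deposited with each sample. Aligner and callers were not given in the sources used here. A peak's signal is the authors' density, and its normalization is not stated, so levels across replicates were also read after each was divided by its median over shared regions. The FDR track holds the authors' deposited p-value or q-value per stretch, listed at 0.05 or lower. Every footprint carries the same deposited value of 0.01, and only positions were taken from that list. Peak signals were whole multiples of 1 step per library, within 0.01 steps, for signals below 1. The weakest and strongest promoters held 329 and 2200 steps in replicate 1 and 207 and 1370 in replicate 2. Whether 1 step is 1 cut is not recorded, so the depth is unknown and no interval is given.

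Peaks of the replicates that overlapped by at least 1 bp were joined. Regions were placed by their centre with GENCODE M21. Coordinates are 1-based. Distances run from the main start, the 5′ end of the gene's principal annotated transcript. For the RefSeq sequences the table's own start was used. No strand was used for peaks.

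The 10 genes, the lists of pathway, target and marker genes and the rule for named genes were chosen with earlier results of these data known. The immune list held 1 further marker gene that is not reported here, so its count is over the other 8. The rule named all 10 genes, the 2 open genes of highest signal in each pathway list, up to 3 genes of a list without a promoter peak, the strongest non-promoter region per locus and every region with a match under a shared footprint. With 1 group no test was possible, so counts stand beside those of all genes or regions. Alternatives were the stricter peak list, equal numbers of peaks, reciprocal overlap, other promoter windows and flanks, other forms of the motif, an FDR of 0.001 and each replicate alone. Python 3.11.15 with numpy 2.4.6 and matplotlib 3.10.9 was used, with bedtools 2.31.1, and the overlap and motif steps were tested on simulated data.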

Additional observations from a re-analysis of the deposited data

How the results depend on the processing

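All 10 promoters and all 38 other pathway promoters were open under every alternative run for them. Moves within the spread set for a result are mostly left out here, and that spread was wide for some counts. Inside it, the 68 shared regions became 55 with the stricter peak list. Counted from a single library, they were 98 in replicate 1 and 86 in replicate 2. Shared footprints went from 169 to 127 with a reciprocal overlap of 50% and to 121 with a flank of 10 kb. Regions with an NF-kB match went from 21 to 28 when the mismatch described below was allowed. No paired analysis was possible because there is 1 group and its replicates share no number with another group. The definition of the locus moved most counts. With a flank of 10 kb, 50 kb or none, the shared regions became 45, 118 and 26, their median density 11.5, 10.5229 and 16.7 per 100 kb, the share at the genes' own promoters 48.9%, 18.6% and 76.9%, and the bases at an FDR of 0.05 in both replicates 19.977 kb, 43.7 kb and 10.6 kb. Shared footprints became 259 with a flank of 50 kb and 63 in gene bodies, and regions with an NF-kB match 11 in gene bodies. The median density was 9.68 with the stricter peak list and also with a reciprocal overlap of 50%. The promoter share was 38.2% with the stricter list and 27.9% with a window of 500 bp. At an FDR of 0.001 the bases in both replicates came to 20.5 kb. With 1 mismatch allowed at the fourth, seventh or eighth position of the NF-kB consensus, 18 matches rather than 8 lay under a shared footprint. Without a mismatch, 3 matches did when 5 bases had to be covered in each replicate. With each replicate alone the density was 11.3 per 100 kb in both cases, the promoter share ran from 27.9% to 33.7%, footprints from 262 to 320 and bases at an FDR of 0.05 from 31.6 to 35.6 kb. Settings that search other lengths of sequence, fewer peaks or 1 replicate change these counts by construction, and the cause of the other moves was not tested. The fewer peaks of replicate 2 limit what can be called shared, so weak regions may be missing from the counts.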
